A study of Morus alba with 35 samples.

Results

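White mulberry (Morus alba) cell suspensions, labelled as stem, held 64 genes whose transcripts were more abundant in elicited than in control flasks at each of 6 sampling times, out of 31401 annotated genes. Elicited flasks received 50 mM methylated beta-cyclodextrin (MBCD) with 100 µM methyl jasmonate (MeJA), and control flasks the same volume of ethanol, the carrier. All flasks held cells of a suspension aged 14 days, washed and moved to fresh medium in the dark, so the controls also carry the effect of transfer. Elicited cells gave 3 libraries at 0.5 and 6 h and 4 at 12, 24, 48 and 72 h, and controls gave 2 at each time, 34 libraries in all with 17191217 to 18897243 counts each. The members were chosen from the values themselves. Levels are CPM, the counts scaled to the same total in every library. The log2 difference at a time is the log2 ratio of the mean elicited CPM plus 1 to the mean control CPM plus 1. A member had to reach 0.8 at all 6 times and a mean control level of at least 1 CPM at 1 or more times. The differences between elicited and control cells below therefore describe the members and are not tested.

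Jasmonates are plant defence hormones. In Arabidopsis the active conjugate brings the receptor COI1 together with JAZ repressor proteins, the JAZ proteins are degraded, and MYC-type transcription factors are freed. Genes for JAZ proteins and for jasmonate synthesis are among the classic early targets there, and enzymes of specialised metabolism follow. Cyclodextrins are cyclic sugars that, added with MeJA, raise stilbenes such as resveratrol in grapevine cell cultures, and oxyresveratrol is the stilbene this series concerns. The deposited table pairs no identifier with a gene name or product, so no member can be placed in these pathways, the stem label cannot be checked against marker genes, and sequences are not shown. In such bulk samples fewer cells of a type and less RNA per cell cannot be told apart.

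The members were mostly short genes with few exons. The table annotates a single exon for 22 of the 64 (34.4%, Wilson 95% interval 23.9 to 46.6%), against 15.8% of the 20107 genes tested, which are those left after a filter on low counts. At most 3 exons were annotated for 45 members (70.3%, against 38.8% of tested genes). Their median exon length was 1122 bases, against 1585 bases over all tested genes, and no member exceeded 2450 bases. All 64 passed the filter. They lay on all 14 chromosomes and 1 scaffold, with 8 on chromosome 5, 7 each on chromosomes 1 and 6, and 1 on chromosome 12. A gene on the opposite strand shared exon bases with a member at 1 place only, on chromosome 8. There the single-exon gene at 14750943 to 14751941 (minus strand) lay wholly within the exons of the gene at 14749370 to 14751996 (plus strand). Both were members, their counts correlated over the 34 libraries with an r of 1.000, and their summed counts had a ratio of 1.04. Their reads cannot be separated, so the 64 members amount to 63 loci with independent reads.

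At each time most members had their elicited libraries above their control libraries. Every elicited library exceeded every control library of the same time for 61 members at 0.5 h, where 11.6% of tested genes were separated in this way. In order of the later times this held for 64 (12.3%), 55 (12%), 64 (20.7%), 62 (20.7%) and 64 members (24.8%). The separation held at all 6 times for 52 members, against 1% of tested genes. The 9 members whose groups overlapped at 12 h became 4 without elicited 12 h replicate 4 and also 4 without control 12 h replicate 2. By the edgeR quasi-likelihood test (Benjamini-Hochberg adjusted p below 0.05), 37 members were called higher in elicited cells at 0.5 h (2.34% of tested genes were). The later times gave 50 (3.64%), 59 (12.8%), 62 (21.7%), 63 (26.5%) and 61 members (22.3%), and the average of the times gave all 64 (30.9%). Since the rule used these contrasts, the counts describe how many members stood clear of the spread between flasks. With scaling by library size alone, 1.26, 3.08, 7.82, 13.9, 19.03 and 17.7% of tested genes were called higher in time order and 4.45, 3.41, 23.2, 30.3, 36.3 and 27.8% lower, where the TMM scaling used here gave 1.64, 2.60, 10.2, 17.9, 25.1 and 21.8% lower. The 31 members called at every single time are 48.4% of the members and 60.8% of the 51 genes so called in the whole table (0.254% of tested genes).

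The difference was smallest early and widest late. Over all tested genes too, fewer were called higher early (2.34% at 0.5 h) than late (26.5% at 48 h). In time order the median log2 difference of the members was 1.28, 1.72, 2.00, 2.70, 3.09 and 2.89, while over all tested genes the median lay between -0.19 and -0.07. For 34 members the lowest of the 6 differences was the one at 0.5 h, while the highest was the one at 48 h for 19 and at 72 h for 22. The mean of the 48 and 72 h differences exceeded the mean of the 0.5 and 6 h differences in 55 members, by at least 1 log2 unit in 35, with a median of 1.21 and a range of -1.37 to 8.23. The difference increased at every step in 5 members, and 41 members kept it at or above 1 log2 unit throughout. Just inside the limit stood genes on chromosomes 10 (17353441 to 17354831, 0.81 at 12 h) and 14 (2165929 to 2167390, 0.81 at 0.5 h). Just outside it stood genes on chromosomes 5 (10859455 to 10862560, 0.79 at 48 h) and 14 (9272424 to 9272999, 0.79 at 6 h). Lowest differences between 0.8 and 0.9 were held by 13 members, and those between 0.7 and 0.8 by 16 other genes.

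**Figure D1:**
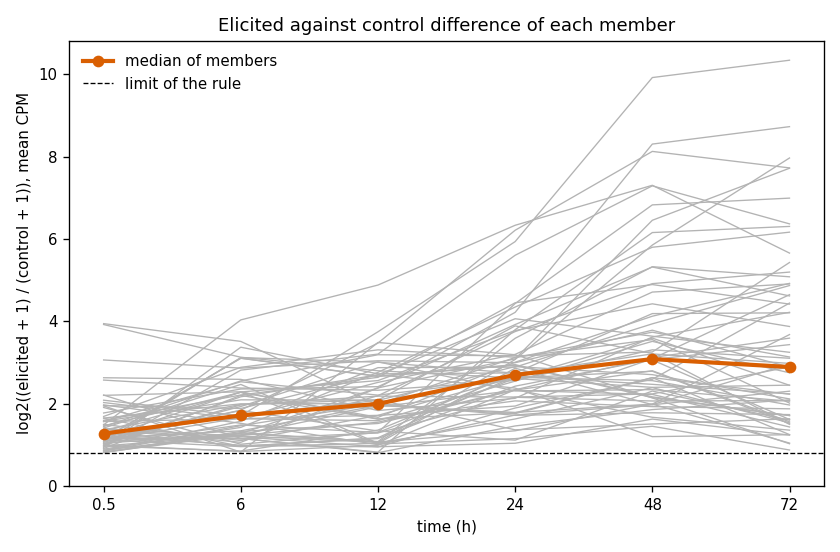
Log2 difference of mean CPM plus 1, elicited over control, at the 6 times (evenly spaced), 1 grey line for each of the 64 members, with their median in orange and the limit of 0.8 dashed. The median goes from 1.28 at 0.5 h to 3.09 at 48 h, and the highest line reaches 10.34 at 72 h.

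Over all members together, elicited levels stayed above the starting level of controls, and control levels from 24 h on were below it. Each member's log2 level was set against its mean in the 0.5 h controls, and the median was taken over members in each library. In the 0.5 h elicited libraries this median was 1.13, 1.52 and 1.19, against -0.14 and 0.14 in controls. The 6 h elicited libraries gave 2.08, 1.66 and 1.97, against 0.11 and 0.08 in controls. The 12 h elicited libraries gave 2.03, 2.02, 1.93 and 1.45, with replicate 4 below the rest, against -0.25 and -0.14 in controls. Up to 12 h the control medians lay between -0.25 and 0.14, and every elicited library was above the controls of its time. For 24 h the values were 1.77, 2.07, 1.56 and 1.42 in elicited libraries, against -1.20 and -1.14 in controls. For 48 h they were 1.81, 1.68, 1.87 and 1.53 in elicited libraries, against -1.76 and -1.35 in controls. For 72 h they were 1.17, 1.45, 1.53 and 1.56 in elicited libraries, against -1.95 and -1.87 in controls. In this median no elicited library overlapped a control library at any time. The rule chose members for that difference, so the separation describes them and is not a test. Summed over members, the 72 h transcripts came to 19053 ± 2689 CPM in elicited cells (SD, n = 4), against 398 ± 24.7 CPM in controls (SD, n = 2). The same sum at 0.5 h was 5113 ± 999 CPM in elicited cells (SD, n = 3), against 2037 ± 434 CPM in controls (SD, n = 2). At 48 h elicited replicate 3, and at 72 h elicited replicate 1, had the lowest sum of their group. The sum is uneven, since 5 members held 54.7% of the elicited total averaged over times and 10 held 72.6%.

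**Figure D2:**
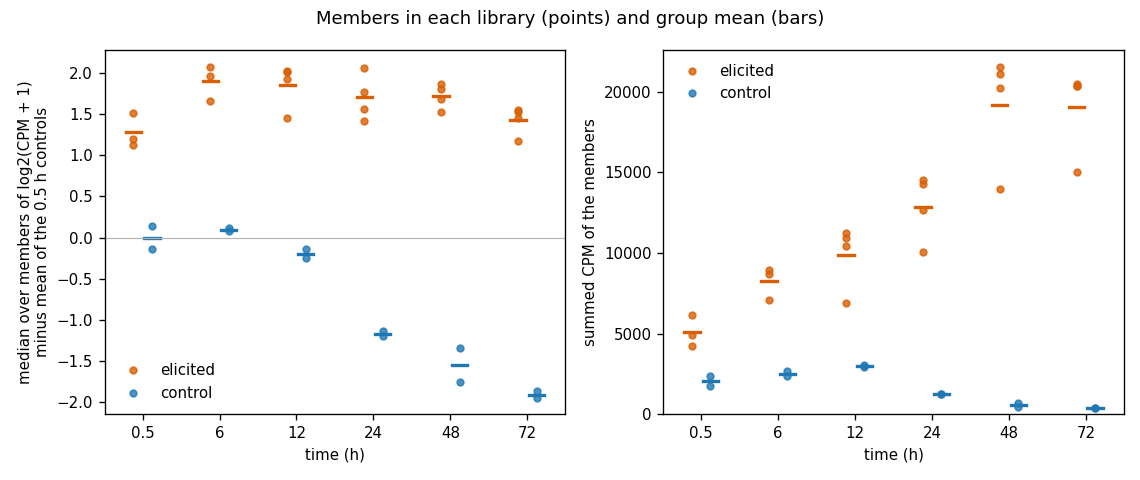
Members in each library at the 6 times, elicited in orange left of control in blue, with points for libraries and bars for group means. Left, the median over members of log2(CPM + 1) minus its mean in 0.5 h controls, which is at least 1.13 in every elicited library and at most -1.14 in every control library from 24 h on; right, the summed CPM, at 19053 in elicited cells and 398 in controls at 72 h.

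Change over time within each treatment was tested, because the rule sets no condition on it. The same levels entered the rule, however, so counts of members are read beside those of all tested genes. In elicited cells 63 members changed over the 6 times (84.9% of tested genes did), and in controls all 64 did (82.4%), by edgeR quasi-likelihood F tests with Benjamini-Hochberg adjusted p below 0.05. The exception in elicited cells was the single-exon gene at 1372468 to 1373751, plus strand, on chromosome 6, at 316 ± 173 CPM at 0.5 h (SD, n = 3) and 486 ± 37.7 CPM at 72 h (SD, n = 4; adjusted p = 0.258, edgeR quasi-likelihood F test). It was named after its value was seen. It was called without elicited 0.5 h replicate 2 (adjusted p = 0.0224, edgeR) and with a replicate block (0.0481), and without that library its rise from 0.5 to 72 h was called too (log2 fold change 0.86, adjusted p = 0.0229, edgeR). From 0.5 to 72 h, 20 members rose in elicited cells (34.6% of tested genes), 32 fell (34.2%) and 12 were not called. In controls over the same span 4 rose (31.5%), 49 fell (33.3%) and 11 were not called. The 4 became 2 without control 0.5 h replicate 2, and also 2 without control 72 h replicate 2. The median log2 fold change from 0.5 to 72 h was -0.45 in elicited cells and -3.34 in controls, against 0.02 and -0.04 over all tested genes. The share that fell in controls was 76.6% among members and 65.2% among the 6218 tested genes called higher on average in elicited cells. In elicited cells 50% of members fell and 31.25% rose, against 47.1% and 27.5% of those 6218 genes. The median log2 fold changes of those genes were -0.26 in elicited cells and -0.94 in controls. With scaling by library size alone the all-gene medians became 0.32 and 0.27, and 46.2% of tested genes then rose and 25.9% fell in elicited cells, 41.1% and 25.4% in controls. Under that scaling 25 members rose and 29 fell in elicited cells, and 5 rose and 46 fell in controls.

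**Figure D3:**
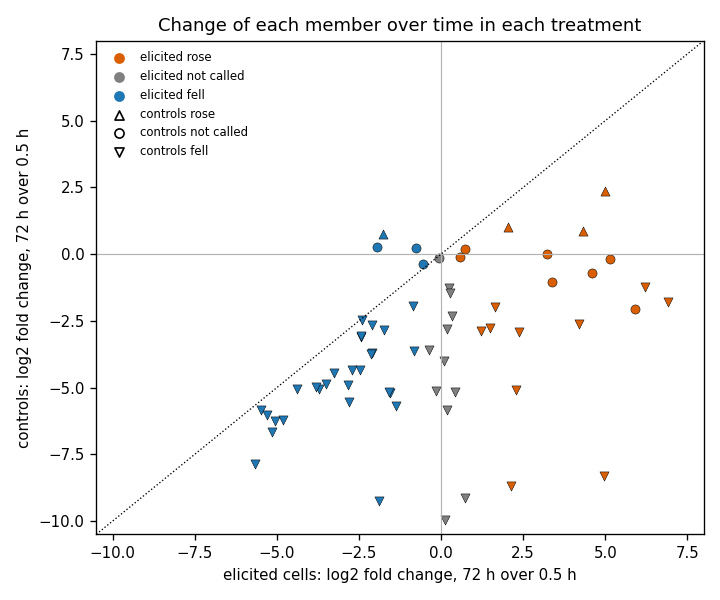
Log2 fold change from 0.5 to 72 h of each of the 64 members, in elicited cells on the horizontal axis and in controls on the vertical axis; colour gives the call in elicited cells, marker shape the call in controls, and the dotted line marks equal change. The 49 that fell in controls lie below 0 on the vertical axis; 28 of them also fell in elicited cells and 10 rose there.

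The calls in the 2 treatments sort the members into 8 courses. The commonest, with 28 members, was a fall in both, which 23.6% of tested genes also showed. Among the 6218 tested genes called higher on average in elicited cells, 42.8% showed it. In those genes the courses given next made up 13.7, 8.62, 12.2, 6.64, 4.21, 0.096 and 10.7%, in the order given. The next were a fall in controls with no call in elicited cells (11 members, 6.83% of tested genes), and a rise under elicitation with a fall in controls (10 members, 2.83%). A further 7 members rose in elicited cells with no call in controls (9.17%), and 3 rose in both, where 22.6% of tested genes did. The remaining 5 included 3 that fell in elicited cells with no call in controls (8.87% of tested genes). Another 1 fell in elicited cells and rose in controls (1.73%), and 1 was called in neither (17.1%).

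**Figure D4:**
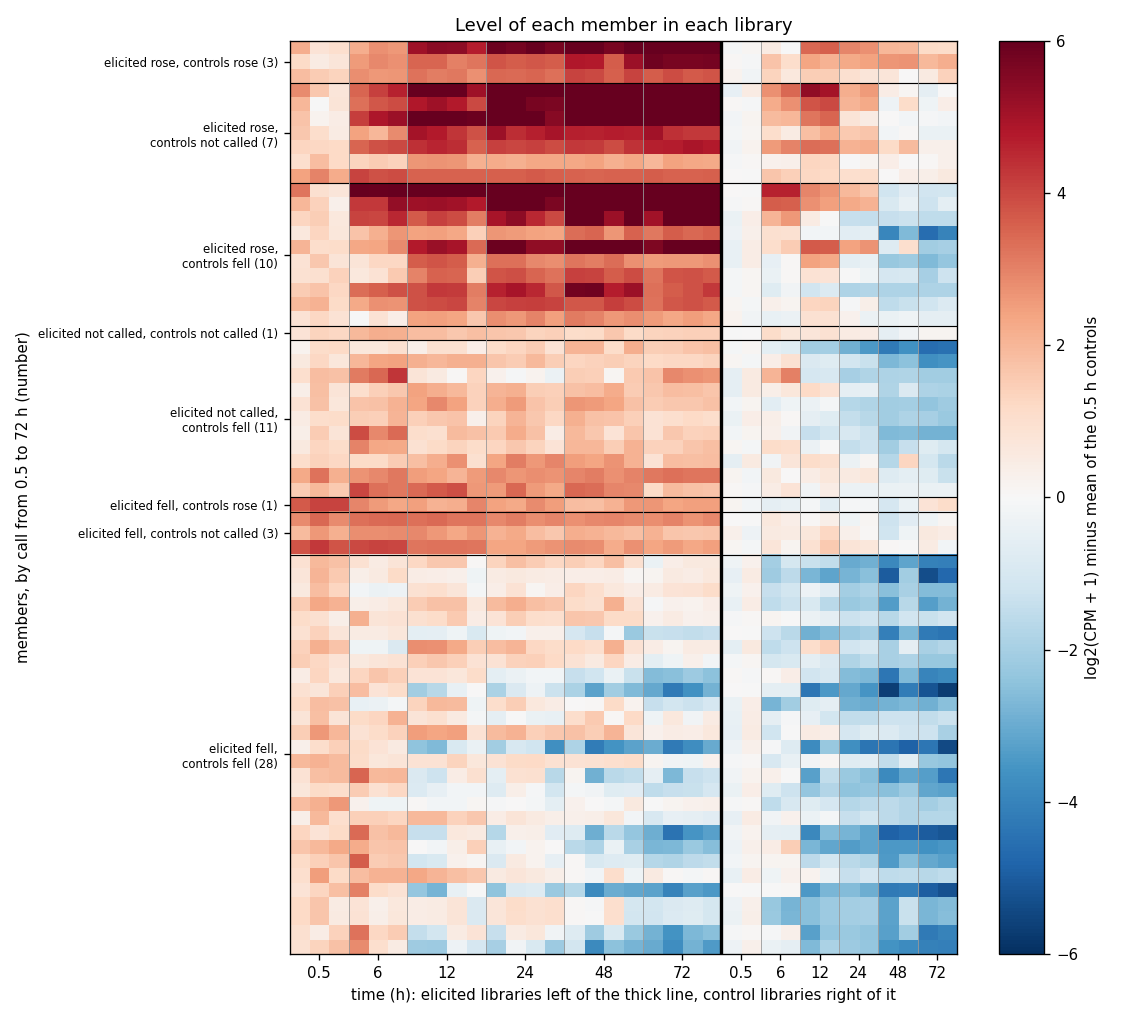
Level of each of the 64 members (rows) in each of the 34 libraries (columns, elicited left of the thick line and control right of it, in order of time), as log2(CPM + 1) minus the mean of the 0.5 h controls, with colours ending at -6 and 6. Rows are grouped by the calls from 0.5 to 72 h; the 28 members that fell in both treatments turn blue in late controls and pale or blue in late elicited libraries, and the 20 that rose in elicited cells turn red, to different depths.

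The 10 members with a rise under elicitation and a fall in controls had a median log2 difference of 1.25 at 0.5 h and 6.69 at 72 h. Their median level in elicited cells, in time order, was 18.6, 91.1, 177, 223, 478 and 461 CPM. In controls the same medians were 4.55, 34.5, 25.5, 12.2, 1.87 and 1.35 CPM, so the control median was highest at 6 h and below its starting level from 48 h on. In elicited cells 8 of them had their highest elicited level at 48 or 72 h.

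A pair of neighbours on chromosome 6, both of this course, had the highest elicited level of the members and, among those with controls of at least 1 CPM throughout, the highest average difference. These are Mal_HE_154X_1_chr006g019950 (19319761 to 19320854, plus strand) and Mal_HE_154X_1_chr006g019960 (19328897 to 19330183, plus strand), each with 2 exons, of 693 and 735 bases in sum, with 8042 bases between them. Per kilobase of exon, their mean elicited levels were 3599 and 2135 CPM and their mean control levels 156 and 51.6 CPM, the 2 highest elicited levels per kilobase among the 64. Mal_HE_154X_1_chr006g019950 stood at 103, 67.8 and 31.0 CPM in the 0.5 h elicited libraries, against 23.6 and 26.8 CPM in the controls, and the groups did not overlap. At 6 h it had 496, 491 and 1022 CPM in elicited libraries and 326 and 313 CPM in controls, so both were above their 0.5 h level. At 48 h it had 5483, 6341, 2426 and 6445 CPM in elicited libraries, with replicate 3 lowest, and 12.8 and 17.9 CPM in controls. At 72 h it had 4018, 6824, 6639.8 and 6592 CPM in elicited libraries, with replicate 1 lowest, and 10.1 and 16.4 CPM in controls, a 455-fold difference of means. Its rise from 0.5 to 72 h in elicited cells was 6.20 (SE 0.44, adjusted p = 2.44e-12) on the log2 scale and its change in controls -1.24 (SE 0.47, adjusted p = 0.0216), by edgeR's quasi-likelihood test (Benjamini-Hochberg). The control call was lost without control 0.5 h replicate 2 (adjusted p = 0.0918, edgeR), without control 72 h replicate 1 (0.180) and with library size alone (0.0699).

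The second gene of the pair, Mal_HE_154X_1_chr006g019960, followed the same course at lower levels. At 0.5 h it had 56.8, 11.3 and 9.44 CPM in elicited libraries, with replicate 1 far above the other two, against 5.44 and 5.18 CPM in controls. At 6 h it had 408, 381 and 728 CPM in elicited libraries and 156 and 152 CPM in controls. At 72 h it reached 2503, 4041, 4199 and 4205 CPM in elicited libraries, with replicate 1 lowest, against 1.89 and 1.90 CPM in controls. The difference of means was 3.29-fold at 6 h and 1977-fold at 72 h. The 4.86-fold difference at 0.5 h rested on elicited replicate 1 and was 1.95-fold without it. The log2 fold change from 0.5 to 72 h was 6.91 (SE 0.54, adjusted p = 1.46e-11) in elicited cells and -1.80 (SE 0.67, adjusted p = 0.0211) in controls (edgeR quasi-likelihood, Benjamini-Hochberg). Without elicited 0.5 h replicate 1 the change in elicited cells was 8.17. The control call was lost when any 1 of the 4 control libraries of 0.5 or 72 h was left out (adjusted p = 0.0567 to 0.0851, edgeR) and with library size alone (0.0505). These 2 genes also had the greatest growth of the difference, with means of 1.22 and 1.90 at 0.5 and 6 h and of 8.51 and 10.13 at 48 and 72 h on the log2 scale.

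Rises in both treatments were few. Mal_HE_154X_1_chr005g007240 (6663635 to 6665033, plus strand), a 2-exon gene on chromosome 5, was the only member with a called rise in controls and a mean control level of at least 10 CPM. Elicited libraries held 94.6, 36.5 and 40.8 CPM at 0.5 h, 726, 895, 869.7 and 543 CPM at 12 h and 1581, 1330.4, 1322 and 1349.6 CPM at 72 h. Controls held 18.7 and 21.6 CPM, then 226 and 249 CPM, then 45.6 and 44.5 CPM at those times. Both treatments were well above their start at 12 h, and at 72 h the controls were nearer to it again while elicited libraries were not. The log2 fold change from 0.5 to 72 h was 4.33 (SE 0.26, adjusted p = 1.07e-13) in elicited cells and 0.85 (SE 0.29, adjusted p = 0.0135) in controls (edgeR quasi-likelihood, Benjamini-Hochberg). The control rise lost its call under 1 of 41 alternatives, the fit without control 0.5 h replicate 1 (adjusted p = 0.0998, edgeR). Its neighbour at 6660476 to 6661364, plus strand, also with 2 exons, was a member at lower level, with 7.77 CPM at 72 h in elicited cells and 0.111 CPM in controls. The other two members that rose in both treatments were 2-exon genes on chromosomes 4 (3137586 to 3140182, plus strand) and 14 (2165929 to 2167390, minus strand). Elicited means of the chromosome 14 gene were 3.33 CPM at 0.5 h and 131 ± 5.64 CPM at 72 h (SD, n = 4), against 1.46 and 9.26 ± 1.13 CPM in controls (SD, n = 2). The control rise of the chromosome 4 gene was lost without control 0.5 h replicate 2 (adjusted p = 0.108, edgeR) and without control 72 h replicate 2 (0.339).

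Of the 28 members that fell in both treatments, 23 had their highest elicited level at 0.5 or 6 h. Their median in elicited cells, in time order, was 62.4, 54.5, 23.9, 18.8, 16.2 and 6.88 CPM. The medians in controls were 22.6, 13.5, 5.92, 3.77, 2.39 and 1.21 CPM. Their median log2 difference, which includes the pseudocount, was 1.33 at the first time, 2.36 at 24 h and 1.73 at the last. The rule itself required at least 0.8 at each time. Both medians declined, and the median log2 fold change from 0.5 to 72 h was -2.59 in elicited cells and -4.93 in controls. The typical fall was thus larger in controls. Their log2 fold changes from 0.5 to 72 h lay between -5.68 and -0.83 in elicited cells and between -9.25 and -1.96 in controls. The value of -9.25 belongs to a member with 0 counts in its 72 h controls, so its size is not well determined. By 72 h the pseudocount of 1 CPM lowers the difference of the weakest members, and 10 of the 64 members had a control group with 3 counts or fewer at some time.

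The greatest falls in elicited cells were on chromosome 5. Mal_HE_154X_1_chr005g017420 (16732857 to 16733132, minus strand), a single-exon gene of 276 bases, had 38.3, 47.0 and 60.3 CPM in elicited libraries at 0.5 h, against 9.17 and 14.4 CPM in controls. At 12 h it had 11.9, 10.3, 14.8 and 33.3 CPM in elicited libraries, with replicate 4 highest, and 0.845 and 0.465 CPM in controls. At 72 h elicited libraries held 0.885, 0.924, 1.70 and 1.14 CPM and controls 0 and 0.115 CPM, the control values resting on 2 counts. The log2 fold change from 0.5 to 72 h was -5.68 (SE 0.45, adjusted p = 1.66e-11) in elicited cells and -7.86 (SE 0.98, adjusted p = 8.63e-08) in controls (edgeR quasi-likelihood, Benjamini-Hochberg). The control value was -6.89 without control 72 h replicate 1 and -10.86 without control 72 h replicate 2. Mal_HE_154X_1_chr005g011140 (10711011 to 10712388, minus strand), with 5 exons, had 49.1, 64.7 and 87.4 CPM at 0.5 h and 2.27, 0.978, 2.72 and 1.49 CPM at 72 h in elicited libraries. Its controls had 20.1 and 32.0 CPM at the first of these times and 0.593 and 0.517 CPM at the second, below every elicited library of the same time. Its log2 fold change was -5.47 (SE 0.68, adjusted p = 6.81e-08) in elicited cells and -5.85 (SE 1.10, adjusted p = 4.01e-05) in controls (same test).

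The greatest falls in controls among members with a mean control level of at least 10 CPM were those of Mal_HE_154X_1_chr005g022350 (20894522 to 20897588, minus strand), with 5 exons on chromosome 5, and Mal_HE_154X_1_chr009g014410 (15325075 to 15326447, minus strand), with 3 exons on chromosome 9. The first had 583, 192 and 215 CPM in elicited libraries at 6 h, with replicate 1 far above the rest, against 37.9 and 36.0 CPM in controls. At 72 h it had 6.30, 1.58, 3.79 and 4.80 CPM in elicited libraries and 0.754 and 0.574 CPM in controls. Its log2 fold change from 0.5 to 72 h was -5.15 (SE 0.61, adjusted p = 2.88e-08) in elicited cells and -6.68 (SE 1.03, adjusted p = 2.49e-06) in controls (edgeR quasi-likelihood, Benjamini-Hochberg). The second had 58.0, 99.0 and 129 CPM in elicited libraries at 0.5 h and 38.0 and 57.7 CPM in controls. At 72 h it had 5.03, 1.52, 2.60 and 4.91 CPM in elicited libraries against 1.40 and 0.115 CPM in controls, with groups that came close but did not overlap. Its log2 fold change was -5.07 (SE 0.66, adjusted p = 1.25e-07) in elicited cells and -6.25 (SE 1.07, adjusted p = 1.13e-05) in controls (same test). The control value was -8.91 without control 72 h replicate 1 and -5.41 without control 72 h replicate 2. The gene thus fell either way, and only its rank among the greatest falls in controls rests on single libraries.

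The most even difference among members with a mean elicited level of at least 10 CPM was that of Mal_HE_154X_1_chr014g008690 (7465097 to 7466697, minus strand), a 2-exon gene on chromosome 14. Its log2 difference lay between 0.96 at 12 h and 1.63 at 48 h. At 6 h elicited libraries held 66.0, 76.8 and 75.0 CPM, against 35.4 and 26.7 CPM in controls. The 72 h libraries held 42.0, 43.4, 46.1 and 44.8 CPM in elicited cells, against 18.2 and 18.0 CPM in controls. Elicited libraries were above controls at all 6 times. It was the member called in neither treatment from 0.5 to 72 h, with log2 fold changes of -0.06 (SE 0.14, adjusted p = 0.729) in elicited cells and -0.15 (SE 0.19, adjusted p = 0.501) in controls (edgeR quasi-likelihood, Benjamini-Hochberg). Mal_HE_154X_1_chr013g001680 (1406203 to 1407758, minus strand), with 5 exons on chromosome 13, had log2 differences between 1.37 and 2.10 and fell in both treatments. At 0.5 h it had 163, 221 and 321 CPM in elicited libraries, against 92.8 and 88.0 CPM in controls. The 72 h libraries had 8.79, 4.73, 8.54 and 7.37 CPM in elicited cells, against 1.94 and 1.44 CPM in controls. At 12 h elicited libraries ranged widely, at 17.3, 12.3, 65.9 and 89.9 CPM, and replicate 2 lay below the higher of the controls (7.44 and 12.7 CPM). Its evenness rested on single libraries, since the log2 difference at 6 h was 0.96 without elicited 6 h replicate 1 and that at 48 h was 0.94 without elicited 48 h replicate 1. Its log2 fold change was -5.30 (SE 0.64, adjusted p = 3.29e-08) in elicited cells and -6.04 (SE 0.98, adjusted p = 5.26e-06) in controls (same test).

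A log2 difference of at least 2 at every time was held by 2 members, both with 5 exons, named here after their values were seen. The gene at 19327811 to 19330059, plus strand, on chromosome 4, stood at 27.7, 42.1 and 27.8 CPM in elicited libraries at 0.5 h, against 3.04 and 2.98 CPM in controls. The 72 h libraries had 26.3, 30.2, 24.7 and 29.0 CPM in elicited cells, against 2.37 and 3.33 CPM in controls. The elicited mean was 10.8 times the control mean at 0.5 h and 9.66 times at 72 h. The gene at 14039780 to 14041855, minus strand, on chromosome 9, was more abundant, with 400.5, 395, 400.4 and 393 CPM in elicited libraries at 12 h and 78.9 and 77.5 CPM in controls. From 12 to 72 h its elicited group means lay between 393 and 415 CPM, and its control means lay between 38.7 and 78.2 CPM. For both genes every elicited library was above every control library at all 6 times.

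In 9 members the log2 difference, taken with the pseudocount, was smaller late than early. The pseudocount shaped this count at low levels. A gene of chromosome 1 (57802443 to 57807133) among them had 3.87-fold and 5.05-fold differences of means at 0.5 and 6 h. At 48 and 72 h its differences of means were 10.5-fold and 11.7-fold. The 2 genes given next had smaller fold differences of means late than early. Mal_HE_154X_1_chr004g010310 (10319814 to 10320613, plus strand), a 2-exon gene on chromosome 4, had its highest elicited values at the first time, 99.9, 126 and 127 CPM, against 7.79 and 5.84 CPM in controls, a 17.3-fold difference of means. At 72 h elicited libraries held 47.9, 39.2, 41.4 and 41.7 CPM and controls 12.7 and 15.6 CPM, without overlap. It was the member that fell in elicited cells, with a log2 fold change of -1.77 (SE 0.20, adjusted p = 1.48e-08), and rose in controls, with 0.75 (SE 0.30, adjusted p = 0.0312) (edgeR quasi-likelihood, Benjamini-Hochberg). The control call was lost without control 0.5 h replicate 2 (adjusted p = 0.193, edgeR) and without control 72 h replicate 2 (0.173). Mal_HE_154X_1_chr008g015450 (15478402 to 15482068, minus strand), with 7 exons on chromosome 8, had 18.9, 26.6 and 18.6 CPM in elicited libraries at 0.5 h, against 0.573 and 0.331 CPM in controls, the largest log2 difference of any member at that time (3.95). At 72 h it had 6.47, 7.50, 6.22 and 6.97 CPM in elicited libraries and 1.02 and 0.287 CPM in controls. Its log2 fold change in elicited cells was -1.95 (SE 0.19, adjusted p = 1.06e-09), and the control change of 0.25 (SE 0.50, adjusted p = 0.676) was not called (same test).

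**Figure D5:**
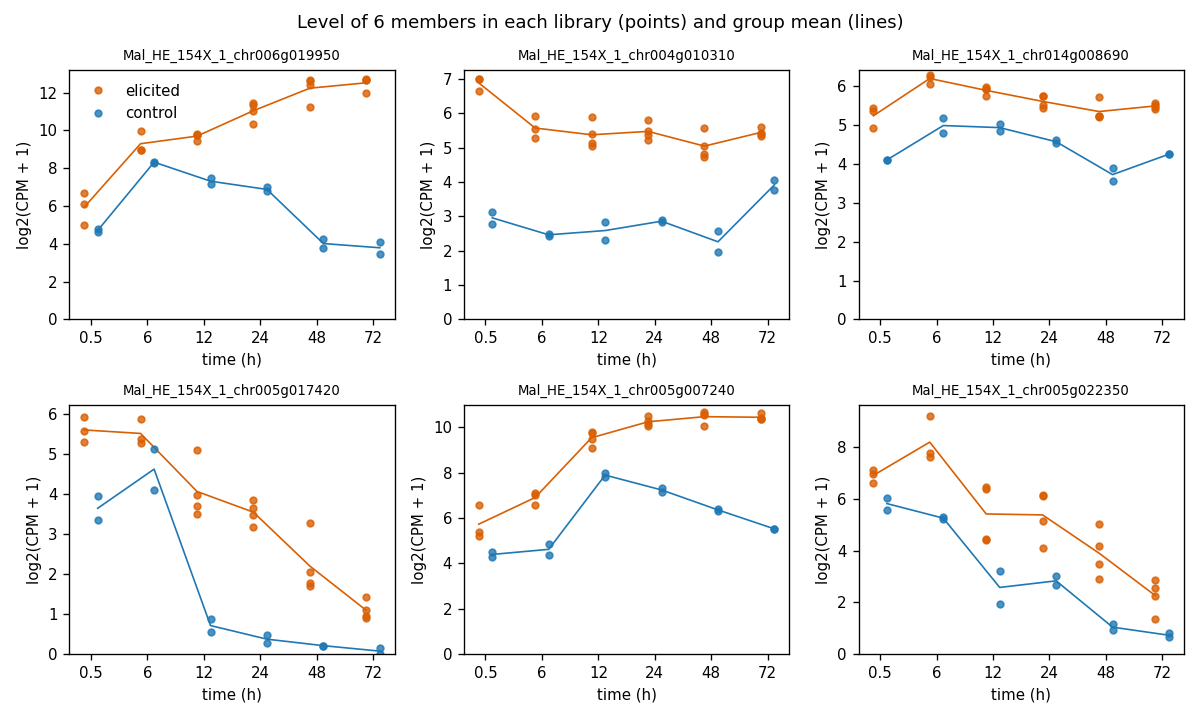
Level of 6 members in each library as log2(CPM + 1) at the 6 times, elicited in orange left of control in blue, with points for libraries and lines through group means. The gene of chromosome 6 stands furthest from its controls at 72 h, that of chromosome 4 starts 17.3-fold apart, that of chromosome 14 runs parallel to its controls, and those of chromosome 5 fell in both treatments or, for Mal_HE_154X_1_chr005g007240, rose in both.

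The 11 members that fell in controls without a call in elicited cells had a median of 24.1 CPM in elicited cells at 72 h, against 0.546 CPM in controls. The 0.5 h medians were 13.1 CPM in elicited cells and 6.31 CPM in controls. Most abundant per kilobase among them, at 367 and 361 CPM in elicited cells, were the single-exon gene of chromosome 6 given above and a 4-exon gene on chromosome 7 (10656098 to 10657897, plus strand), named after their values were seen. The chromosome 7 gene stood at 130.0, 239.6 and 259.6 CPM in elicited libraries and 101 and 123 CPM in controls at 0.5 h. At 72 h it stood at 314, 324, 371 and 393 CPM in elicited libraries and 3.72 and 4.08 CPM in controls. Its log2 fold change over that span was 0.43 (SE 0.25, adjusted p = 0.12) in elicited cells and -5.15 (SE 0.40, adjusted p = 1.89e-11) in controls (edgeR quasi-likelihood, Benjamini-Hochberg). A call in elicited cells appeared without elicited 0.5 h replicate 3 (adjusted p = 0.0466, edgeR) and with library size alone (0.00577). The 7 members that rose in elicited cells with no call in controls had elicited medians of 16.7, 163 and 364 CPM at 0.5, 12 and 72 h, against 3.71, 65.8 and 3.62 CPM in controls. The control median thus stood highest in between. All 7 changed over the 6 times in controls, as did all 64 members and 82.4% of tested genes.

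Position in the genome was examined through neighbours, which the rule did not choose. Adjacent members formed 4 runs, none longer than 2 genes. These were the pairs on chromosomes 5 and 6 described above, the overlapping genes on chromosome 8, and genes at 5635700 to 5637942 and 5665323 to 5667284 on chromosome 9 (both on the minus strand). The nearest genes on either side of members numbered 117 when members were left out, of which 74 were tested. Of these neighbours, 34 (45.9%, Wilson 95% interval 35.1 to 57.2%) were called higher in elicited cells on the average of the 6 times, against 30.9% of tested genes (edgeR quasi-likelihood, Benjamini-Hochberg), and 20 (27.0%) were called lower. A called increase of at least 2-fold was found for 11 of the 74 (14.9%), against 8.28% of tested genes. With scaling by library size alone the 34 became 22, and the share of all tested genes called higher became 20.5%, with 47.3% called lower, where TMM gave 30.0% lower. Neighbours of 1 member and of the next can be close together, so the 74 genes are not independent of each other.

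The raised neighbours with the lowest adjusted p for the average difference flanked a member of chromosome 8, and were named after their values were seen. The member is a 2-exon gene at 3947101 to 3949431, minus strand, which stood at 971, 990.4, 987 and 1096 CPM in elicited libraries at 72 h and 25.5 and 32.3 CPM in controls. The gene at 3959803 to 3962096 had 2038, 2655, 2914 and 3311 CPM in elicited libraries at 72 h and 26.2 and 37.5 CPM in controls, and missed the rule with a log2 difference of 0.60 at 6 h. The gene on the other side, at 3933095 to 3934976, had 2691, 3295, 3465 and 3952 CPM in elicited libraries and 387 and 462 CPM in controls at that time. It missed the rule with log2 differences of 0.25 at 0.5 h, 0.13 at 6 h and -0.01 at 12 h. All 3 genes have 2 exons on the minus strand. The average log2 fold changes of the 2 neighbours were 3.26 (SE 0.18, adjusted p = 6.43e-15) and 1.52 (SE 0.11, adjusted p = 3.56e-12) in the order named, by edgeR's quasi-likelihood test (Benjamini-Hochberg). Larger averages were called for less abundant neighbours. The largest was 5.73, for a neighbour on chromosome 3 with a mean elicited level of 2.27 CPM. At 12 h the member had 2033, 2224, 2049 and 721 CPM in elicited libraries, against 871 and 785 CPM in controls, and replicate 4 lay below both controls.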

How the data were processed

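The deposited table holds raw read counts for each gene. The authors made these counts with fastp, STAR and featureCounts, per the submitters' processing notes; the genome build is not given in the sources used here, nor are versions, settings, annotation and the treatment of strand. RNA had an integrity number of at least 7, and libraries came from a stranded mRNA kit, per the labels' protocols. Columns were matched to samples by the description label. A pooled long-read sample is not analysed here. Positions come from the deposited table and are 1-based.

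CPM used column totals. Tests used R 4.3.3 and edgeR 4.0.16: filterByExpr with a minimum count of 10, TMM scaling, and 1 quasi-likelihood fit (glmQLFit, glmQLFTest) of 12 group means over all 34 libraries. P-values were adjusted by Benjamini-Hochberg over the 20107 tested genes and called below 0.05. Standard errors (SE) were obtained by dividing the size of a log2 fold change by the root of its F. DESeq2 1.42.0, other scaling, no filter, replicate blocks, 1 treatment alone and each library left out were alternatives. Replicates were separate flasks per the labels. A shared parent suspension is possible, and p-values then reflect only the spread between flasks. Within groups the chi-square per degree of freedom of 2 libraries was at least 2.79 over 36 pairs, so none was counted as a duplicate. Wilson intervals of 95% cover counting error only.

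Genes given in full were, among members, the 2 with the highest elicited CPM and the 2 with the highest mean difference (controls at least 1 CPM throughout). They were also, where the level was at least 10 CPM, the 2 with the most even difference, the 2 whose difference grew and the 2 whose difference shrank most, and the 2 with the largest called rise and fall in each treatment, though only 1 rise in controls qualified. Adjacent members and the genes nearest to the limit were named as well. Members and lists were chosen with earlier results of these data known. On simulated counts of 20107 genes with 200 changed, edgeR recovered 72% of 2-fold and 98% of 4-fold changes for elicited cells at 72 against 0.5 h with 7 unchanged genes called, and 63% and 93% with 11 for controls.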

Additional observations from a re-analysis of the deposited data

Results flagged for a closer look

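In the groups of 4 elicited libraries, 52 sets of values were examined for a single library far from the rest, and 9 were found. Chance gives about 1 in 20 for a single set. The sets are not independent, since the summed levels contain the genes examined singly, so the 9 cannot be read against that rate. At 12 h, replicate 4 had a median member level of 1.45 log2 units over the 0.5 h controls, where the others lay between 1.93 and 2.03.

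At 48 h, replicate 3 stood apart in 4 sets. Its summed member level was 13943 CPM, where the others lay between 20243 and 21511 CPM. Its median member level was instead the highest of the group, at 1.87 log2 units over the 0.5 h controls, against 1.53 to 1.81. It held 8.64 CPM of Mal_HE_154X_1_chr005g017420, against 2.29 to 3.15 CPM in the others, and 51.6 CPM of Mal_HE_154X_1_chr014g008690, against 36.1 to 36.7 CPM. Its 5.83 CPM of Mal_HE_154X_1_chr008g015450 was below the 8.71 to 9.28 CPM of the others.

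At 72 h, replicate 1 stood apart in 4 sets. Its summed member level was 15022 CPM, where the others lay between 20340 and 20484 CPM. It was low for Mal_HE_154X_1_chr006g019950, at 4018 CPM against 6592 to 6824 CPM, and for Mal_HE_154X_1_chr006g019960, at 2503 CPM against 4041 to 4205 CPM. It was high for Mal_HE_154X_1_chr005g007240, at 1581 CPM against 1322 to 1349.6 CPM.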

How the results depend on the processing

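The 64 members became 41 with a limit of 1 log2 unit. They were 54 and 76 with a pseudocount of 2 and 0.5 CPM, 92 with TMM-scaled CPM (all 64 kept and 28 added), 56 with group medians (48 kept), 52 when groups also had to be separated at every time, and 68 with no control minimum. Leaving out 1 library gave 51 to 79, the lowest without control 0.5 h replicate 1 and the highest without control 0.5 h replicate 2. When the elicited replicate 4 of 12 h and replicate 3 of 48 h were both dropped, a setting picked after seeing the data, 67 genes met the rule, 63 of them members. The 4 members higher at 72 than at 0.5 h in controls were 2 to 4 with 1 library left out, 2 without control 0.5 h replicate 2 or control 72 h replicate 2. The 34 raised neighbours became 22 with library size alone and were 32 to 36 with 1 library left out. The cause was not tested, other than that a limit of 1 log2 unit is stricter by construction. The remaining counts stayed within 1.5 times in every alternative run. With 1 library left out they were 62 to 63 and 63 to 64 changed over time in elicited cells and controls, 20 to 22 higher and 29 to 32 lower at 72 h in elicited cells, and 45 to 49 lower in controls. Replicate numbers showed little sign of pairing. Deviations of same-numbered libraries from their group means correlated across genes with a median r of 0.01 (-0.19 to 0.20 over 153 pairs). Of the 34 libraries, 14 correlated best with their own number. The numbers in the description labels differ for some libraries. They gave a median r of 0.01 (-0.19 to 0.30 over 130 pairs), with 11 of 34 best with their own. A shared parent suspension was not tested. With a replicate block, 64 members changed over time in each treatment, 20 rose and 32 fell in elicited cells, 4 rose and 49 fell in controls, and 31 neighbours were raised. The 2 control libraries per time set the precision of the control values.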

Other observations

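Some elicited libraries were the highest or lowest of their group for many members. At 0.5 h, replicate 1 was the lowest of the 3 elicited libraries for 19 of the 28 members that fell in both treatments, and the highest for 11 of the 20 members that rose in elicited cells. At 6 h, replicate 1 was the highest for 18 of those 28 and the lowest for 14 of those 20. At 12 h, replicate 4 was the lowest for 19 of the 20, and for 15 of the 28. At 24 h, replicate 4 was the lowest for 16 of the 20 and replicate 2 the highest for 18 of the 28. At 48 h, replicate 3 was the lowest for 15 of the 20 and the highest for 14 of the 28. At 72 h, replicate 1 was the lowest for 15 of the 20 and also for 15 of the 28. These counts are values of single libraries and were not tested.

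In 3 genes that fell in both treatments, chosen after their values were seen, the values of single libraries lay far apart. At 6 h Mal_HE_154X_1_chr013g001680 had 739, 196 and 164 CPM in elicited replicates 1 to 3, Mal_HE_154X_1_chr005g011140 had 187, 52.1 and 36.1 CPM and Mal_HE_154X_1_chr005g022350 had 583, 192 and 215 CPM, all with replicate 1 highest. At 12 h the same genes had 17.3, 12.3, 65.9 and 89.9 CPM, 4.94, 4.79, 20.1 and 12.3 CPM and 20.6, 20.2, 85.7 and 81.1 CPM in elicited replicates 1 to 4, with replicates 3 and 4 above replicates 1 and 2 in each. Over all 28 members of that course, replicate 4 was the highest at 12 h for 8. What set these flasks apart was not tested.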
